A study of Mus musculus with 8 samples.

Results

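The 10 genes described here are the GADD45 genes Gadd45a, Gadd45b and Gadd45g, the GADD45-interacting gene Gadd45gip1, and 6 kinase genes of the stress cascades that GADD45 proteins engage: Map3k4, Map2k3, Map2k6, Map2k7, Mapk14 and Mapk8. They were chosen by name, with earlier results of these data known, and all 10 were found by symbol among the 37310 genes of the count tables. RNA-seq counts came from 8 pools of 2-cell mouse embryos of the C57BL/6N strain, 4 wild-type and 4 lacking both Gadd45a and Gadd45b (the double knockout, DKO). DKO mice came from crosses between double heterozygotes that carried the 2 knockout alleles. Embryos were taken 20 h after the vaginal plug from females 3 to 4 weeks old of the wild-type or DKO genotype, which had been superovulated and mated naturally. Each pool held 23 to 35 embryos of a single litter, so one pool averages over littermates. Mothers and embryos shared a genotype label, so maternal and embryonic loss of the genes cannot be told apart. The exons removed by the knockout alleles are not given in the sources used here.

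GADD45 proteins are small, acidic proteins without an enzymatic activity of their own, made in response to stress and DNA damage. They bind the N-terminal part of MAP3K4 and release it from autoinhibition. MAP3K4 then phosphorylates the MAP2Ks, dual-specificity kinases, of which MAP2K3 and MAP2K6 activate p38 while MAP2K7 activates JNK. GADD45 proteins are also known for ties to DNA repair and to the removal of DNA methylation, and the 2-cell stage is when the mouse embryo begins major transcription from its own genome.

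The windows just before the start sites of the 3 GADD45 genes are shown because these paralogues differ in their promoters as well as in their levels. Each is the 250 bases before the start, read 5′ to 3′ on the gene's strand from RefSeq on GRCm38.p6, while the submitters' processing notes name the earlier builds NCBIM37 and mm9. They lie at chr6:67037408-67037657 on the minus strand for Gadd45a, chr10:80929841-80930090 on the plus strand for Gadd45b and chr13:51846425-51846674 on the plus strand for Gadd45g. GENCODE release M21, the annotation used for gene lengths, begins Gadd45a at 67037457 and Gadd45b at 80930073, inside these windows. It begins Gadd45g at 51846678, after its window. Distances below are from the RefSeq starts. Capitals mark matches, on either strand, to 5 of the motifs searched: the CCAAT box (CCAAT), the TATA box (TATAAA), the GC box (GGGCGG), the octamer (ATTTGCAT) and the E-box (CACGTG).
Gadd45a: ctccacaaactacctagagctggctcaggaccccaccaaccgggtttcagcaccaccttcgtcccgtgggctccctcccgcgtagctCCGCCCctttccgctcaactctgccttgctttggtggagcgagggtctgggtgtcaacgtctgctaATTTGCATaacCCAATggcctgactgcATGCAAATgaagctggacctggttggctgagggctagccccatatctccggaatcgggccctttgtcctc
Gadd45b: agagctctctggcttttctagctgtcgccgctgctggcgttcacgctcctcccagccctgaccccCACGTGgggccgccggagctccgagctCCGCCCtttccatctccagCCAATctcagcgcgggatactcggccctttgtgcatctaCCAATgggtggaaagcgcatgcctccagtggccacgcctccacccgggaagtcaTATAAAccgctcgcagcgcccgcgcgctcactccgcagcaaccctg
Gadd45g: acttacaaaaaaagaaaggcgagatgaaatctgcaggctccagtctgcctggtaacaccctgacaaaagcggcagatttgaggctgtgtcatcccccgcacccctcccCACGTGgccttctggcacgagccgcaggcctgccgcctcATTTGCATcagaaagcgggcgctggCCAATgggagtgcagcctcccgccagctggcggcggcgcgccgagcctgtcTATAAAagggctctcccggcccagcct
The CCAAT box is the feature that all 3 windows share, with 2 matches in Gadd45b and 1 in each of the others, and 33.9% of 32851 windows of this length hold one. The octamer, the motif bound by POU factors, matched in Gadd45a, 63 to 70 and 90 to 97 bases before the start, and in Gadd45g, 96 to 103 bases before it. It is held by 1.60% of the windows and had no match in Gadd45b. TATA boxes matched in Gadd45b (41 to 46 bases before the start) and Gadd45g (22 to 27 bases), against 12.4% of the windows. An E-box matched in the same 2 genes, against 6.02%, and a GC box in Gadd45a and Gadd45b, against 32.7%. The other motifs searched, the cyclic AMP response element (TGACGTCA, in 1.55% of the windows) and the AP-1 site (TGACTCA, in 4.46%), had no match in the windows of the members. CG dinucleotides numbered 22 in the Gadd45b window, 16 in Gadd45g and 11 in Gadd45a, beside a median of 6 over the windows. Windows were found for 9 members. In the kinase genes the octamer and the E-box had no match, and GC boxes numbered 7 in the window of 1 of the 2 Mapk8 start sites. These matches describe letters in these windows only.

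The libraries held 21329736 to 23919114 counts and 18433 to 20427 genes with a count. Each library had reads of all 8 markers of the 2-cell embryo and all 9 oocyte markers. The 2-cell markers summed to 1729 to 2217 CPM (counts scaled to a common library size) in wild-type and 1292 to 1858 in DKO. The lowest sum was that of DKO replicate 1. By edgeR's log2 fold change 4 of the 8 were higher in DKO and 4 lower, and 0 had an adjusted p under 0.05. Tdpoz4 alone did not overlap between the genotypes, at 10.1 to 22.5 CPM in DKO and 25.1 to 36.5 in wild-type. Of all tested genes 5.34% did not overlap. Of 15 cumulus and granulosa markers, cells that surround the egg, 12 averaged under 0.5 CPM, with Ptx3, Amh, Foxl2 and Inhba at 0 in every library. The others were Tnfaip6 at 5.53 to 11.2 CPM, Cyp19a1 at 1.30 to 4.02 and Col4a1 at 0.351 to 0.950 over the 8 libraries. The sum of the 15, most of it Tnfaip6, was 9.70 to 14.4 CPM in wild-type and 9.09 to 14.6 in DKO. The summed oocyte markers were 4674 to 8496 CPM in wild-type and 7938 to 14409 in DKO. Btg4, Omt2b and Oosp1 made up most of the sum, averaging 4083, 3663 and 1306 CPM in DKO and 2354, 2193 and 862 in wild-type. Gdf9, Bmp15 and Mos averaged 75.0, 693 and 3.30 CPM in DKO and 54.5, 627 and 2.46 in wild-type. Zp2, Zp3 and Nlrp5 were alike, at 81.8, 147 and 113 CPM in DKO and 82.0, 147 and 114 in wild-type. The DKO pools other than replicate 1 lay between 7938 and 9968. DKO replicate 1 had the 14409, although its Zp3 was the lowest of the 8 pools, at 116 CPM. Its counts also stood apart, with a chi-square per degree of freedom of 70.2 to 107 against the other DKO pools, which were at 22.8 to 29.0 among themselves, while pairs of wild-type pools were at 22.2 to 71.0. Named log2 fold changes that move by over 1.5 times or change sign without this library are given without it too. In pooled embryos, fewer embryos with a transcript and less of it per embryo cannot be told apart.

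In DKO embryos Gadd45b stood at 0.623% and Gadd45a at 47.1% of the wild-type level, while Gadd45g and Gadd45gip1 overlapped between the genotypes. Of the 10 members, 1 passed edgeR's quasi-likelihood test at an adjusted p under 0.05, Gadd45b, where 0.0267% of the 14970 tested genes passed. All 10 were among the tested genes. DESeq2 called 2 members, Gadd45a and Gadd45b, beside 0.314% of all tested genes, and limma-voom called 1, Gadd45b, beside 0.0334%. The DKO values lay below every wild-type value in 2 members, the knocked-out genes, and 2.55% of all genes did so.

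Gadd45b (ENSMUSG00000015312, chromosome 10) encodes a GADD45 protein that is induced by NF-kappaB and TGF-beta signalling. It had 910, 946, 1395 and 808 counts in wild-type replicates 1 to 4 and 4, 14, 1 and 6 in DKO. In CPM the wild-type pools stood at 39.3, 43.5, 62.3 and 36.1, and the DKO pools at 0.179, 0.615, 0.0442 and 0.267. The lowest wild-type pool was thus far above the highest DKO pool. Gadd45b fell by 7.33 ± 0.42 on the log2 scale (SE, edgeR giving an adjusted p of 5.63e-07), which leaves 0.623% of the wild-type level with a 95% interval of 0.332% to 1.17%. The DKO remainder rests on few reads, and without DKO replicate 2, which held 14 of them, the log2 fold change was −8.07 ± 0.42 (SE). No 85-base run of its annotated transcripts, the length of a read, occurred in a transcript of another gene.

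Gadd45a (ENSMUSG00000036390, chromosome 6) encodes the GADD45 protein best known as a p53 target. Its counts were 482, 341, 502 and 468 in wild-type and 237, 247, 163 and 201 in DKO, or 20.8, 15.7, 22.4 and 20.9 CPM against 10.6, 10.8, 7.21 and 8.94. The groups did not overlap, although wild-type replicate 2 came nearest to the DKO pools. The log2 fold change was −1.09 ± 0.22 (SE, edgeR giving an adjusted p of 0.303), or 47.1% of wild-type with a 95% interval of 34.2% to 64.9%. By edgeR's p it ranked 8 among the 14970 genes tested. Over 17 alternatives the log2 fold change stayed between −1.19 and −0.98 and the adjusted p ran from 0.000899 (DESeq2, the only one to call it) to 0.614. Counts over the whole gene do not tell reads of a deleted part from reads of what an allele leaves. The gene overlaps E230016M11Rik, a noncoding transcript on the opposite strand, in which 13.2% of the 85-base runs of Gadd45a transcripts also occur. E230016M11Rik had 3 to 12 counts in DKO and 4 to 20 in wild-type libraries, and was not called (−0.72 ± 0.71 on the log2 scale, with an adjusted p of 0.718 in edgeR). The strand setting of the counting is also not given in the sources used here.

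Gadd45g (ENSMUSG00000021453, chromosome 13), the paralogue not targeted, differed more between pools of a genotype than between the genotypes. It stood at 5.66, 2.67, 6.08 and 1.30 CPM in wild-type replicates 1 to 4 and at 5.77, 2.77, 5.88 and 2.98 in DKO. Within each genotype the replicates numbered 1 and 3 were above those numbered 2 and 4, without overlap. Behind these values are 129, 63, 133 and 67 counts in DKO and 131, 58, 136 and 29 in wild-type. The log2 fold change was 0.15 ± 0.45 (SE, edgeR giving an adjusted p of 0.918), at 111% of wild-type with a 95% interval of 57.3% to 214%. It was −0.15 without wild-type replicate 4, the pool with the fewest Gadd45g reads, and −0.025 without DKO replicate 1 or without DKO replicate 3. No label says what pools of the same number share.

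Gadd45gip1 (ENSMUSG00000033751, chromosome 8) encodes CRIF1, a protein of the large mitochondrial ribosomal subunit that was first found as a GADD45 partner. The wild-type pools stood at 34.3, 29.2, 24.4 and 44.2 CPM and the DKO pools at 14.6, 29.2, 27.0 and 24.1. DKO replicates 1 and 4 lay below every wild-type pool, replicate 1 by far the more, while replicates 2 and 3 lay among the lower wild-type values. On the log2 scale the fold change was −0.48 ± 0.24 (SE, edgeR giving an adjusted p of 0.494), and −0.31 ± 0.21 without DKO replicate 1 (SE, edgeR giving an adjusted p of 0.899). Of the 85-base runs of Gadd45gip1 transcripts, 36.7% also occur in another gene, which is not reported here.

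**Figure D1:**
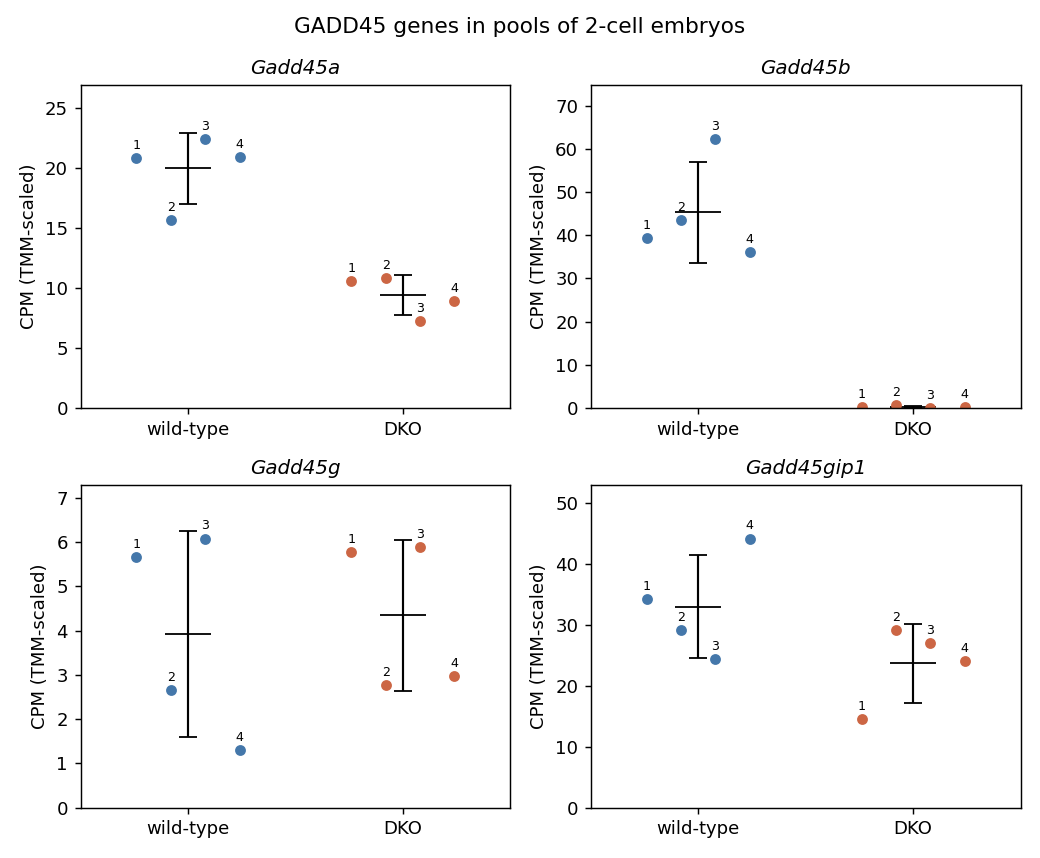
CPM (vertical axis, TMM-scaled counts, each panel with its own range from 0) of 4 GADD45 genes in each pool, with points numbered by replicate and bars for the mean and SD of 4 pools. Gadd45b is near 0 in DKO, Gadd45a does not overlap between genotypes, and Gadd45g is at 5.66 to 6.08 in replicates 1 and 3 and at 1.30 to 2.98 in replicates 2 and 4 of both genotypes.

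Taken per exon length, in TPM (counts per kilobase of exon scaled to the same total in each library), the 3 GADD45 genes summed to 108, 102, 149 and 89.2 in wild-type and 30.7, 23.5, 25.2 and 20.7 in DKO. The mean was 4.48-fold higher in wild-type, at 112 ± 25.6 against 25.0 ± 4.20 TPM (SD, n = 4 each). In wild-type embryos Gadd45b made up 65.8% ± 5.04 of that sum, Gadd45a 26.8% ± 5.13 and Gadd45g 7.43% ± 3.73 (SD, n = 4). In DKO the reads assigned to Gadd45a were 58.4% ± 11.0 of the smaller sum and those of Gadd45g 39.7% ± 12.6 (SD, n = 4). The higher share of Gadd45g came with a like level, 8.73 ± 5.19 TPM in wild-type and 10.1 ± 4.20 in the DKO pools (SD, n = 4 each).

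Among the 6 kinases 0 were called by edgeR, DESeq2 or limma-voom and 0 reached an unadjusted edgeR p under 0.05, which 10.2% of all tested genes reached. Their values overlapped between the genotypes in all 6, and 5.34% of all tested genes did not overlap, in either direction. The median log2 fold change of the 6 was 0.28, and that of all tested genes 0.012. Without DKO replicate 1 the median of the 6 was 0.039, with 3 positive in place of 4, and it was 0.18 to 0.44 with any other library left out. None of the 8 members other than the knocked-out genes lies on chromosome 6 or 10, where the targeted loci are.

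Map3k4 (ENSMUSG00000014426, chromosome 17), the kinase that GADD45 proteins bind, had few reads, 45 to 107 a library. It stood at 1.94, 3.54, 2.01 and 2.50 CPM in wild-type and 4.78, 3.60, 2.30 and 3.65 in DKO. Of the DKO pools 3 were above every wild-type pool and replicate 3 was among them. The DKO to wild-type log2 fold change was 0.52 ± 0.35 (SE, edgeR giving an adjusted p of 0.581), or 143% of wild-type with a 95% interval of 85.7% to 240%, and 0.34 without DKO replicate 1.

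Map2k3 (ENSMUSG00000018932, chromosome 11) and Map2k6 (ENSMUSG00000020623, chromosome 11) encode the kinases that switch on p38. Map2k3 stood at 19.9, 28.9, 25.3 and 23.2 CPM in wild-type and 27.5, 26.0, 20.0 and 23.4 in DKO, with the groups intermingled. Its log2 fold change was −0.0054 ± 0.19 (SE, edgeR giving an adjusted p of 0.994), with a 95% interval of 75.4% to 132% of the wild-type level, and −0.078 without DKO replicate 1. Map2k6 stood at 2.72, 2.85, 2.28 and 5.50 CPM in wild-type and 6.04, 2.86, 1.95 and 4.23 in DKO, so that 1 wild-type and 2 DKO pools stood above the rest. Its log2 fold change was 0.17 ± 0.40 (SE, edgeR giving an adjusted p of 0.886), and −0.16 without DKO replicate 1. Its 95% interval was wide, at 62.4% to 204% of the wild-type level.

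Map2k7 (ENSMUSG00000002948, chromosome 8) encodes a kinase dedicated to JNK. The wild-type pools lay close together, at 7.30, 6.99, 5.77 and 6.97 CPM, and the DKO pools at 6.97, 11.7, 6.99 and 10.4. DKO replicates 2 and 4 were above every wild-type pool and replicates 1 and 3 were among them. On the log2 scale the fold change was 0.42 ± 0.25 (SE, edgeR giving an adjusted p of 0.549), or 133% of wild-type with a 95% interval of 91.9% to 194%, and 0.26 without DKO replicate 2.

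Mapk14 (ENSMUSG00000053436, chromosome 17), which encodes p38 alpha, had the lowest coefficient of variation of the 10 genes in both genotypes. It stood at 77.0, 66.8, 66.5 and 75.4 CPM in wild-type and 74.6, 71.1, 67.2 and 71.9 in DKO, or a coefficient of variation of 7.78% and 4.30%. The DKO to wild-type log2 fold change was −0.0051 ± 0.14 (SE, edgeR giving an adjusted p of 0.993), and the 95% interval ran from 80.9% to 123% of the wild-type level. It was −0.035 without DKO replicate 1.

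Mapk8 (ENSMUSG00000021936, chromosome 14) encodes JNK1, a kinase that phosphorylates JUN. It stood at 84.5, 75.6, 88.4 and 64.9 CPM in wild-type and 155, 93.1, 82.2 and 80.0 in DKO. DKO replicate 1 was far above every other pool, and it is also the library with 14409 CPM of summed oocyte markers; the part of that in the result was not tested. On the log2 scale the fold change was 0.39 ± 0.21 (SE, edgeR giving an adjusted p of 0.509), or 131% of wild-type with a 95% interval of 96.4% to 178%. Without DKO replicate 1 it was 0.11 ± 0.14 (SE, edgeR giving an adjusted p of 0.945).

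**Figure D2:**
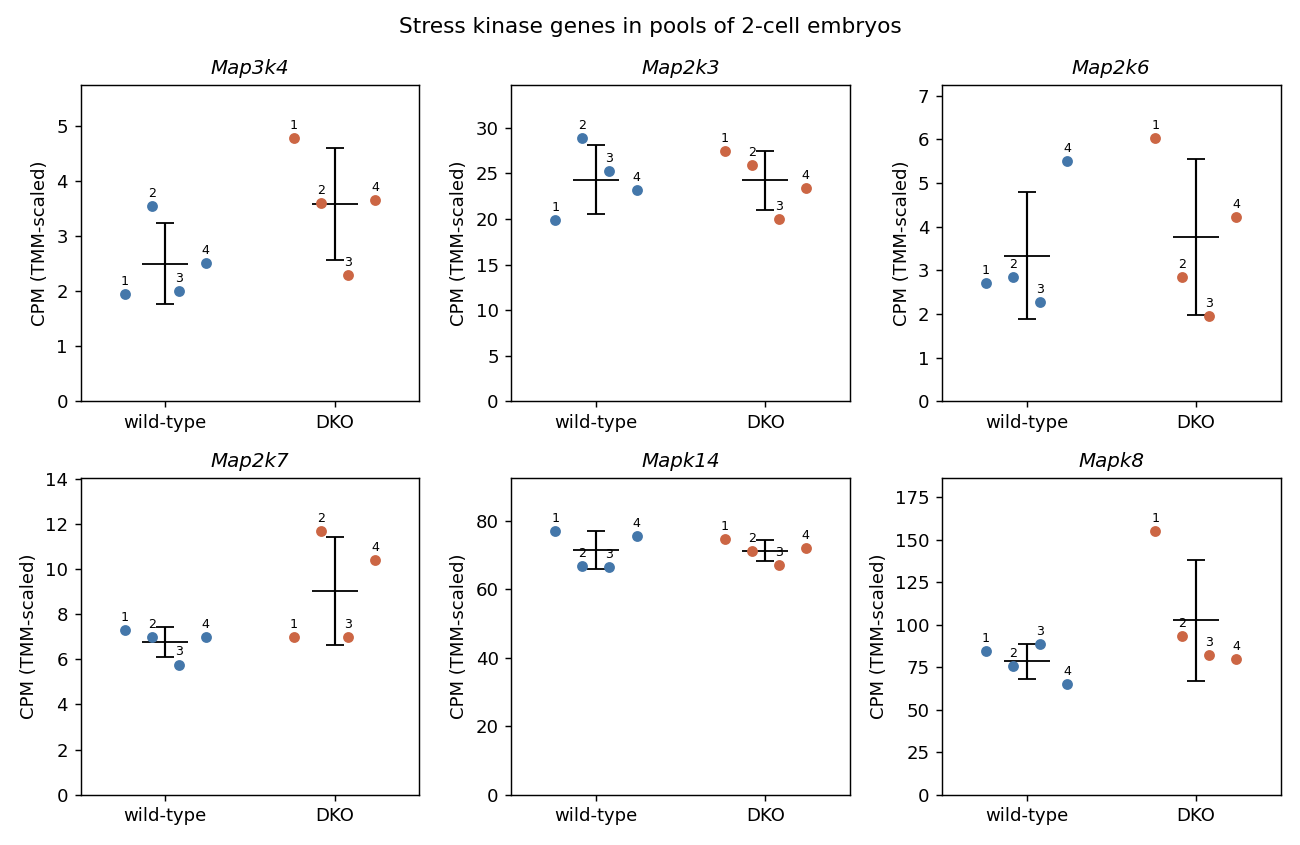
CPM (vertical axis, TMM-scaled counts, each panel with its own range from 0) of the 6 kinase genes in each pool, with points numbered by replicate and bars for the mean and SD of 4 pools. The genotypes overlap in every panel, and DKO replicate 1 stands apart for Mapk8 at 155.

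**Figure D3:**
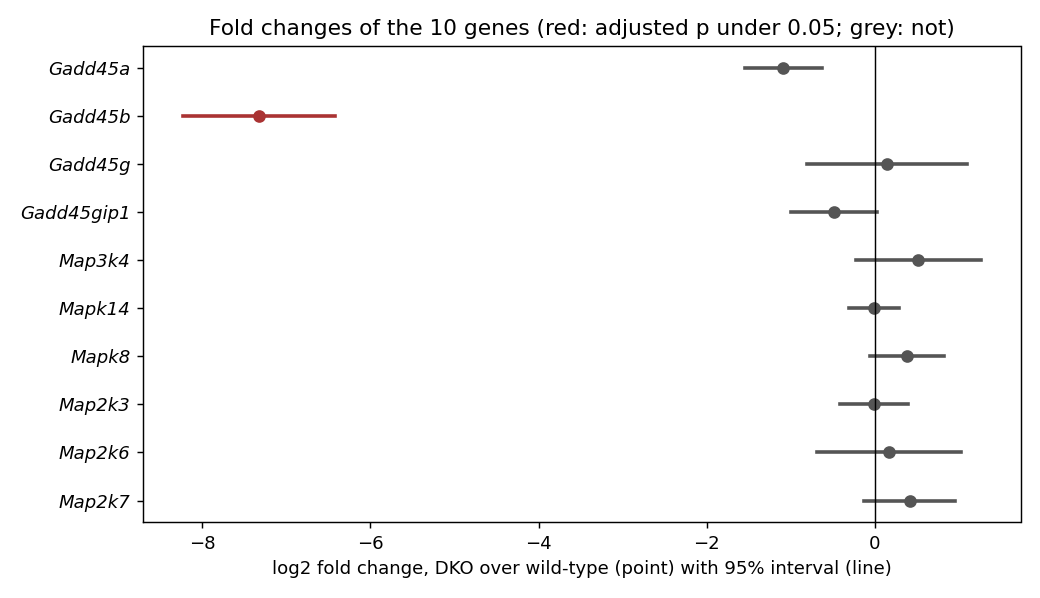
Log2 fold change of DKO over wild-type (horizontal axis) of the 10 genes, with points for edgeR's estimate and lines for its 95% interval. The intervals of Gadd45b and Gadd45a lie below 0, those of the other 8 genes include 0, and Gadd45b, in red, is the gene with an adjusted p under 0.05.

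Within wild-type embryos the order of levels per exon length ran from Gadd45b at 74.1 ± 19.7 TPM to Map3k4 at 0.638 ± 0.196 (SD, n = 4), which places the GADD45 partner kinase last. Between them came Mapk14 at 42.3 ± 2.98, Gadd45gip1 at 34.2 ± 8.02, Gadd45a at 29.3 ± 4.10 and Map2k3 at 19.0 ± 3.20 TPM (SD, n = 4). Mapk8 followed at 17.8 ± 2.65, Gadd45g at 8.73 ± 5.19, Map2k7 at 4.58 ± 0.476 and Map2k6 at 2.49 ± 1.02 TPM (SD, n = 4). The ranges of the 4 wild-type pools were apart at 4 of the 9 steps of this order: Gadd45b over Mapk14, Gadd45a over Map2k3, Mapk8 over Gadd45g and Map2k6 over Map3k4. At the other 5 steps the ranges of neighbours overlapped. Of these, Map2k7 was above Map2k6 in 4 of 4 pools, with ranges that met through wild-type replicate 4 of Map2k6 (3.99 TPM) and replicate 3 of Map2k7 (3.92 TPM). At the remaining 4 steps the order also differed between pools. Gadd45b lay at the 85.8th percentile of all tested genes with a length, Mapk14 at the 79.0th and Map3k4 at the 10.5th. In DKO Gadd45b was last of the 10, at 0.464 ± 0.401 TPM (SD, n = 4), below Map3k4 at 0.954 ± 0.279. With the coding length in place of the exon length 6 of the 10 genes kept their place, and Mapk8 moved from place 6 to place 3.

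**Figure D4:**
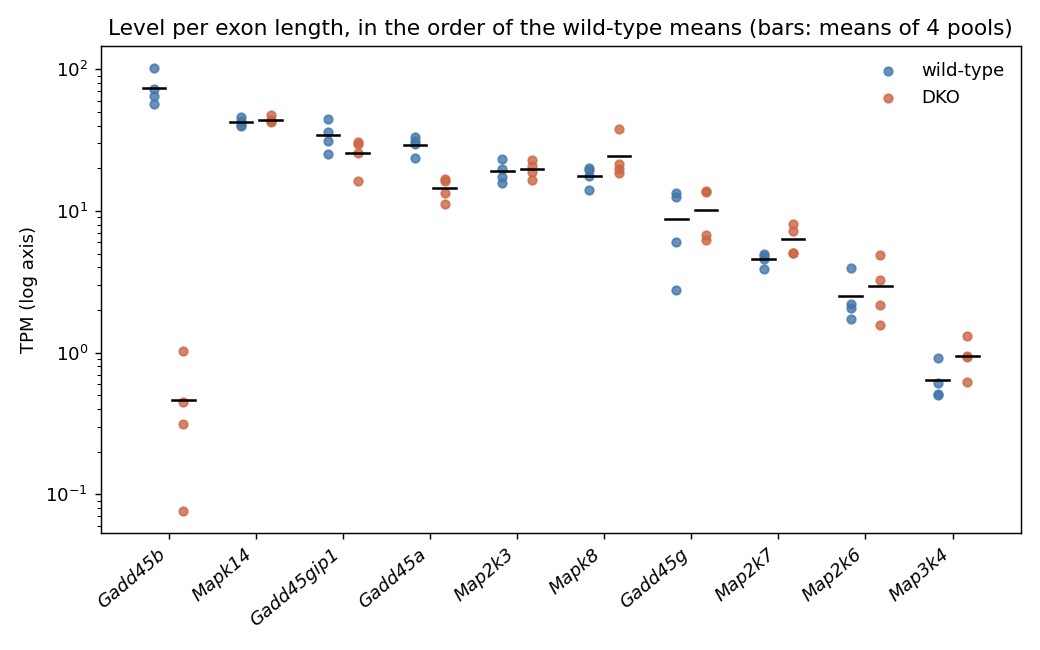
Level per exon length in TPM (vertical axis, log scale) of the 10 genes in the order of their wild-type means, with one point per pool and bars for the means of 4 pools. Wild-type means run from 74.1 for Gadd45b to 0.638 for Map3k4, and Gadd45b in DKO drops to 0.464.

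Each stress kinase family leaned on one or a pair of paralogues, and the shares overlapped between the genotypes. Of the summed TPM of the 4 p38 genes, Mapk14 gave 71.7% ± 5.88 in wild-type and 72.4% ± 4.82 in the DKO pools (SD, n = 4 each), followed by Mapk13 at 21.7% and 22.2%. Of the JNK genes, Mapk9 gave 56.8% ± 4.84 in wild-type and 50.9% ± 7.80 in DKO, and Mapk8 38.7% ± 3.12 and 45.1% ± 7.41 (SD, n = 4 each). The Mapk8 share was 34.7% to 41.5% in wild-type pools and 38.3% to 54.8% in DKO pools. The order of Mapk9 and Mapk8 depends on the exon lengths used. In wild-type Mapk8 averaged 78.4 CPM and Mapk9 68.9, and by coding length Mapk8 was at 55.6 TPM in place of 17.8. The shares were not computed with coding lengths. Map2k3 made up 88.3% ± 4.84 and 87.4% ± 4.24 of the p38 MAP2K pair with Map2k6 (SD, n = 4 each). Map2k4, which activates JNK and can activate p38, made up 90.0% ± 2.25 and 89.3% ± 3.73 of its pair with Map2k7 (SD, n = 4 each). An 85-base run shared between genes was found for none of Mapk14, Mapk8, Map2k3 and Map2k6. Of the runs of Map2k7, 31.1% also occur in Gm49320, an overlapping gene on the same strand that is not among the genes counted, and 0.410% of those of Map3k4 occur in Gm11235, a pseudogene with 0 counts in every library.

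The other genes of the pathway were read from 10 lists with 97 symbols, of which 95 were matched and 89 tested. No gene of these lists passed edgeR's, DESeq2's or limma-voom's adjusted threshold in either direction. At an unadjusted edgeR p under 0.05 there were 8 (8.99%, beside 10.2% of all tested genes), 5 with a positive and 3 with a negative log2 fold change. In 4 (4.49%, beside 5.34%) the genotypes did not overlap. The median log2 fold change was 0.040 (−0.013 to 0.064 with 1 library left out at a time), with 47 genes positive and 42 negative, and the median of all tested genes was 0.012. For the genes named from these lists, a value with no other unit is the log2 fold change of DKO over wild-type ± its SE. List medians are followed by their range with 1 library left out at a time.

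Upstream of the MAP2Ks, the 16 other MAP3Ks had 10 positive members and a median log2 fold change of 0.24 (0.044 to 0.33, lowest without DKO replicate 1). The member with the highest level per length in wild-type was Taok1, a kinase that feeds p38, at 69.4 TPM, and its log2 difference was 0.10 ± 0.16 (SE, edgeR giving an adjusted p of 0.822). Map3k5, the redox-regulated ASK1, followed at 21.9 TPM with 0.40 ± 0.20 (SE, edgeR giving an adjusted p of 0.490). Without DKO replicate 1 the value was 0.19 for Map3k5 and −0.032 for Taok1. Map3k13 had the smallest p of the positive members, at 2.19 ± 0.925 CPM in DKO pools and 1.07 ± 0.342 in wild-type pools (SD, n = 4 each), at 1.03 ± 0.47 (SE, edgeR giving an adjusted p of 0.480). Among the negative members it was Map3k1, at −0.39 ± 0.28 (SE, edgeR giving an adjusted p of 0.602).

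The 6 other MAP2K, p38 and JNK genes were split, 3 positive and 3 negative, with a median of −0.012 (−0.10 to 0.088). Map2k4 stood at 94.9 ± 20.3 CPM in DKO pools and 75.9 ± 13.3 in wild-type pools (SD, n = 4 each), at 0.32 ± 0.18 (SE, edgeR giving an adjusted p of 0.528). The Map2k4 value was 0.16 without DKO replicate 1. Mapk11, p38 beta, was at −0.44 ± 0.44, and Mapk9, JNK2, at −0.055 ± 0.17. Of 10 tested scaffolds and adaptors 5 were positive and 5 negative (median −0.052, range −0.062 to 0.033). The TAK1-binding adaptors Tab2 and Tab3, the list's highest in level at 39.0 and 26.1 TPM in wild-type, were at 0.0099 ± 0.18 and 0.24 ± 0.19, Tab2 changing sign over the alternatives. Traf2, an adaptor of TNF receptors, was at −0.49 ± 0.23 (SE, edgeR giving an adjusted p of 0.489), and Sh3rf1, a JNK scaffold, at 0.38 ± 0.21. With DKO replicate 1 left out, the values were 0.16 for Sh3rf1, 0.046 for Tab3 and −0.16 for Tab2.

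Phosphatases that act on MAP kinases or the kinases above them, not on p38 and JNK alone, were 6 positive and 3 negative of 9 tested. Their median was 0.074 (0.055 to 0.12). Ppm1a, which dephosphorylates p38 and MAP2Ks, had 326 TPM in wild-type, above each of the 10 members, and a log2 fold change of −0.31 ± 0.20 (SE, edgeR giving an adjusted p of 0.560). Its relative Ppm1b was at 0.40 ± 0.19 (SE, edgeR giving an adjusted p of 0.488), and Dusp7, second in level, at 0.46 ± 0.25. Leaving out DKO replicate 1 gave 0.11 for Dusp7, 0.18 for Ppm1b and −0.19 for Ppm1a, and Ppm1a was at −0.18 without wild-type replicate 4.

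Of the 7 kinases activated by p38, 6 were positive, with a median of 0.16 (0.12 to 0.20). Mapkapk2 (MK2), a classical p38 substrate, stood at 3.35, 4.57, 3.27 and 5.56 CPM in DKO and 1.94, 3.17, 2.55 and 0.983 in wild-type. Its groups did not overlap, and the fitted difference was 0.95 ± 0.38 (SE, edgeR giving an adjusted p of 0.469). Mapkapk5 and Mknk1, the list's highest in level, were at 0.052 ± 0.18 and 0.070 ± 0.18, and both changed sign over the alternatives. Mknk1 was at 0.14 without DKO replicate 1. Rps6ka4 averaged 0.254 CPM in DKO and 0.560 in wild-type, near the lower end of what was tested.

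Among 9 tested transcription factors downstream of p38 or JNK, 4 were positive and 5 negative (median −0.053, range −0.21 to 0.035). Atf2, a p38 and JNK target, was the list's highest, at 242 TPM in wild-type, and its DKO pools (621 to 716 CPM) all lay below the wild-type pools (725 to 817 CPM). The distance was small, at −0.19 ± 0.13 (SE, edgeR giving an adjusted p of 0.600). Elk4, a ternary complex factor, was 42.6 to 53.9 CPM in DKO and 29.8 to 37.8 in wild-type, without overlap, at 0.48 ± 0.17 (SE, edgeR giving an adjusted p of 0.469). Ddit3, also known as CHOP and as Gadd153, was at 0.16 ± 0.26, and at 0.097 without DKO replicate 1. Jun itself, the namesake target of JNK, had 19 counts over the 8 libraries and was not tested.

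For comparison, the 10 tested genes of the ERK cascade, the growth factor branch, had 6 positive members and a median of 0.16 (0.070 to 0.19). Map2k2 (MEK2) was 12.2 to 19.4 CPM in DKO and 23.8 to 28.7 in wild-type, without overlap, at −0.61 ± 0.20 (SE, edgeR giving an adjusted p of 0.469). Mapk3 (ERK1) was at 0.47 ± 0.22 (SE, edgeR giving an adjusted p of 0.485). The Mapk3 value was 0.19 without DKO replicate 1.

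Factors known to switch Gadd45 genes on or off had 5 positive and 4 negative members of 9 (median 0.25). Without DKO replicate 1 the median was −0.11, with 4 positive, and with any other library left out it was 0.10 to 0.46. Trp53, which encodes p53, stood at 26.7, 36.7, 25.3 and 16.7 CPM in DKO and 42.1, 38.8, 38.2 and 34.5 in wild-type, with overlap through DKO replicate 2 alone. Its log2 fold change was −0.54 ± 0.22 (SE, edgeR giving an adjusted p of 0.469). Foxo3, a forkhead activator of Gadd45a, stood at 71.6, 43.2, 46.9 and 36.4 CPM in DKO and 27.5, 36.8, 33.0 and 30.1 in wild-type, at 0.64 ± 0.21 (SE, edgeR giving an adjusted p of 0.469). Its highest pool was again DKO replicate 1, without which it was at 0.40. Atf4, first in level at 169 TPM in wild-type, was at −0.15 ± 0.14.

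All 8 tested protein partners of GADD45 outside the kinase cascade stood lower in DKO by their fitted value (median log2 fold change −0.18, range −0.27 to −0.085), where 48.8% of all tested genes did, and 0 of the 8 reached an unadjusted p under 0.05. Without DKO replicate 1, 7 of the 8 were lower and the median was −0.085. Cdk1 and Ccnb1, the kinase and cyclin of mitotic entry whose complex GADD45 proteins can inhibit, were at −0.34 ± 0.18 and −0.30 ± 0.17 (SE, with edgeR adjusted p-values of 0.501 and 0.538). Without wild-type replicate 4 they were at −0.20 and −0.19, and Ccnb1 was at −0.18 without DKO replicate 1. They were also the list's highest in level, at 584 (Cdk1) and 1195 TPM (Ccnb1) in wild-type. Tdg, the glycosylase of DNA demethylation, had 12 counts over the 8 libraries and was not tested. Beside Gadd45gip1, 6 genes of the mitochondrial ribosome and of insertion into the inner membrane were tested, 2 positive and 4 negative (median −0.065, range −0.16 to −0.026). Oxa1l, the insertase that CRIF1 works with, was at 9.53 ± 1.49 CPM in DKO pools and 14.0 ± 3.31 in wild-type pools (SD, n = 4 each), at −0.55 ± 0.23 (SE, edgeR giving an adjusted p of 0.471). Mrpl45, Cox18 and Mrpl23 were at −0.23 ± 0.15, −0.082 ± 0.15 and 0.45 ± 0.53. Mrpl23 had few reads, averaging 0.930 CPM in DKO and 0.678 in wild-type.

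**Figure D5:**
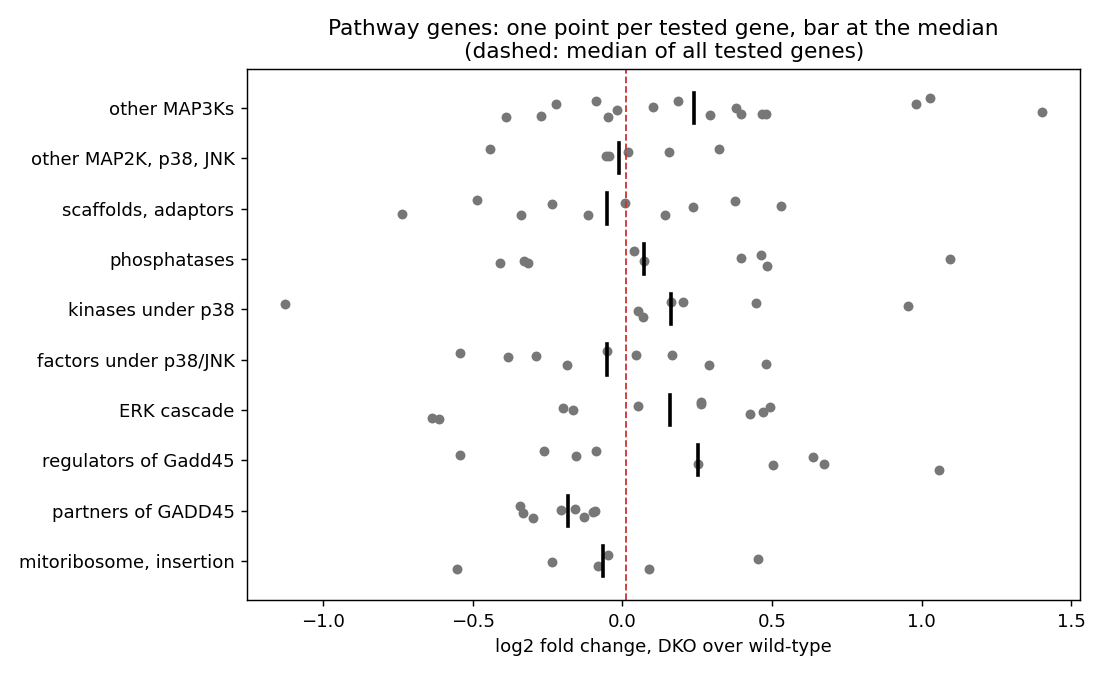
Log2 fold change of DKO over wild-type (horizontal axis) of the 89 tested pathway genes, one point per gene and one row per list (a gene in 2 lists appears in both), with bars at list medians and a dashed line at the median of all tested genes, 0.012. List medians lie between −0.18 and 0.25.

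The genes whose course over the 8 libraries was most like that of each GADD45 gene were taken by the smallest distance between standardized log2 CPM, among 11332 other genes with a mean log2 CPM of at least 1. For Gadd45b and Gadd45a this mostly reads the genotype difference itself. Mblac2 was nearest to Gadd45b and among the nearest to Gadd45a, at 5.41, 5.36, 4.25 and 6.01 CPM in DKO and 9.80, 9.88, 10.5 and 10.8 in wild-type. Its log2 fold change was −0.96 ± 0.23 (SE, edgeR giving an adjusted p of 0.394), and DESeq2 called it (adjusted p = 0.0174). The others were 1190007I07Rik for Gadd45b, Mrpl18 for Gadd45a, and the 2 knocked-out genes for each other. For Gadd45g they were Snx4, Fbxw20 and Ahsa2, with distances of 0.431, 0.483 and 0.585. Snx4, a sorting nexin, stood at 67.5, 55.8, 68.2 and 42.2 CPM in wild-type and 70.4, 56.0, 66.2 and 56.0 in DKO. Its replicates 1 and 3 were above replicates 2 and 4 in both genotypes, over a narrower range than Gadd45g. That order follows from the choice of Snx4 by its likeness to Gadd45g and is no separate evidence for it.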

How the data were processed

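RNA of 8 embryo pools was measured by sequencing. A SMART-Seq kit amplified the cDNA over 11 PCR cycles, per the labels' protocols, and the 8 libraries were read together as single reads of 85 cycles. The authors deposited raw read counts per Ensembl gene, with no normalization. Per the submitters' processing notes, tools included STAR 2.5.2b, featureCounts 1.5.1 and DESeq2 1.18.1, with the builds NCBIM37 and mm9. Reads carry no molecular identifiers, so intervals do not separate molecules from copies.

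Counts were tested across all genes with edgeR 4.0.16 in R 4.3.3 (filterByExpr, TMM scaling, robust quasi-likelihood test, Benjamini-Hochberg adjustment, threshold 0.05), all 8 libraries without covariates. Of 37310 genes 14970 were tested. CPM are TMM-scaled. Each standard error is the absolute log2 fold change divided by the square root of that test's F statistic. The 95% intervals use this error and the t distribution. TPM used merged exons of GENCODE release M21 on GRCm38, as did chromosomes and shared 85-base runs. Symbols came from a table of gene IDs and matched 32620 IDs. In the pathway lists 2 symbols, Atf7 and Mrpl29, had no match, nor did the blood markers Hbb-b1 and Hbb-b2. Pools are separate litters, and no pair of a genotype was as close as counting noise would make it (chi-square per degree of freedom of at least 22.2).

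Members and lists were chosen with earlier results of these data known. Named genes were the members; from each list those past the threshold or, where none passed, the smallest p in each direction and the 2 highest levels per length in wild-type; and the 3 genes nearest to each of Gadd45a, Gadd45b and Gadd45g. Chosen outside this rule, with their values known, were Mapk13, Jun, Tdg, the overlapping genes and the named markers of 2-cell embryos, cumulus cells, oocytes and blood. Some results that this rule or the overlap search would name are not reported here. Alternatives were DESeq2 1.42.0, limma-voom (limma 3.58.1) with quality weights, other scalings, filters and thresholds, a replicate block, embryos per pool as a covariate, coding length, and each library left out. The tests were also run on simulated counts with known changes, drawn from the means and dispersions of these data. No simulated library was made to stand apart, and the outcomes are not reported here.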

Additional observations from a re-analysis of the deposited data

Results flagged for a closer look

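Among the 49 named genes, each with 4 pools per genotype, 3 of 98 groups had 1 pool standing apart from the other 3 by Dixon's criterion, which chance meets in about 1 of 20 groups. Taok1 stood at 289 CPM in wild-type replicate 1, where the other wild-type pools lay between 344 and 350. Map2k4 stood at 125 CPM in DKO replicate 1, where the others lay between 81.7 and 88.7. Oxa1l stood at 11.7 CPM in DKO replicate 4, where the others lay between 8.54 and 9.02. None of the 10 members met the criterion in either genotype. Mapk8 came close, at 155 CPM in DKO replicate 1, where the other DKO pools lay between 80.0 and 93.1.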

How the results depend on the processing

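Gadd45b was the member called by edgeR, and it stayed called under every alternative run, with a log2 fold change of −8.07 to −6.97. DESeq2 called 2 members, Gadd45a being the other, and 47 genes in all, against 4 in the edgeR test. Without a low-count filter edgeR called 7 genes, and at a mean of at least 10 CPM, where 7530 genes were tested, 1. With 1 library left out at a time edgeR called 4 genes and 1 member each time. The pathway lists had 0 called genes under every alternative run. Over the 49 named genes, 777 of 821 alternative values kept their sign and their side of the threshold, 42 changed sign and 2 (Gadd45a and Mblac2 by DESeq2) passed the threshold. All 42 sign changes were in genes not called. Mapk14 was at 0.0024 by limma-voom, 0.051 with library size alone, 0.034 at a mean of 10 CPM and 0.021 with embryos per pool; Map2k3 was at 0.046 with library size alone and 0.032 at a mean of 10 CPM. Limma-voom gave −0.070 for Map2k6, −0.0037 for Taok1, −0.15 for Tab2 and −0.00084 for Mapkapk5. Tab2 was at −0.0030 by DESeq2 and by RLE scaling and at −0.021 with the replicate block, and Mknk1 at −0.013 with embryos per pool. Leaving out 1 library at a time, log2 fold changes ran over −0.15 to 0.43 for Gadd45g, −0.044 to 0.029 for Mapk14, −0.10 to 0.087 for Map2k3, −0.16 to 0.52 for Map2k6, −0.032 to 0.18 for Taok1, −0.73 to 0.036 for Mapk11, −0.17 to 0.032 for Mapk9, −0.16 to 0.12 for Tab2, −0.060 to 0.14 for Mapkapk5, −0.030 to 0.18 for Mknk1, −0.044 to 0.16 for Snx4, −0.12 to 0.14 for Fbxw20 and −0.035 to 0.18 for Ahsa2. The cause of these changes was not tested. The order of levels kept 6 of 10 places with coding lengths and 8 to 10 with a wild-type library left out.

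Replicate numbers did not pair the pools: same-numbered pools had correlations of 0.0024 to 0.078 across genes, and 2 of the 8 libraries correlated best with their own number. With the replicate block edgeR called 4 genes and 1 member, as without it, and Gadd45g was at 0.28 ± 0.33 (SE, edgeR adjusted p = 0.749). With 4 pools a genotype, intervals were wide for the low genes Gadd45g (57.3% to 214% of wild-type), Map3k4 (85.7% to 240%) and Map2k6 (62.4% to 204%). Wide intervals were not limited to these genes, as that of Gadd45b ran from 0.332% to 1.17%.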

Other observations

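Haemoglobin transcripts separated 2 pools from the rest without regard to genotype. Hba-a1 stood at 51.1 CPM in DKO replicate 4 and 44.0 in wild-type replicate 1, and at 1.24 to 3.04 in the other 6 pools. Hba-a2 stood at 40.9 and 28.2 CPM in the same pools and at 1.55 to 4.25 elsewhere. The symbols Hbb-b1 and Hbb-b2 had no match and were not read. The leukocyte marker Ptprc had 1 count over the 8 libraries.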
